A study of Arabidopsis thaliana with 6 samples.

Results

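Receptor-like kinases and receptor-like proteins stand in the plasma membrane of plant cells and sense molecules outside them. The members described here are the genes of the cysteine-rich receptor-like kinases (CRK), the L-type lectin receptor kinases (LECRK), the wall-associated kinases and their relatives (WAK, WAKL) and the receptor-like proteins (RLP) that appear in the authors' list of differentially methylated regions (DMRs) between the mutant rbp-ko-1 and the wild type Col-0 of Arabidopsis thaliana. They were taken by name alone, as every entry whose gene name begins with CRK, LECRK, WAK, WAKL or RLP followed by digits. This gave 64 of 18828 entries, which are 30 of 7699 genes and 47 of 9213 DMRs. The 30 genes are 12 named CRK, 8 named LECRK, 3 named WAK and 7 named WAKL. No RLP gene was taken, because the list spells those names with the prefix At, and the 8 RLP genes in it are described apart below. CRK6 (AT3G49370) is listed as a CDPK-related kinase, an intracellular kinase that shares only the abbreviation, so 29 of the 30 genes are receptor kinases by their description in the list. The receptor kinase that RefSeq calls CRK6 is another gene, AT4G23140, which had no entry.

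The tested plants were the rbp-ko-1 mutant, also labelled KO27, a line mutated in the RNA-binding protein gene RBP45D, and the control plants were Col-0. Both were 26 days old and grown on soil under 16 h of light and 8 h of darkness a day, and each genotype had 3 whole-genome bisulfite libraries. Bisulfite sequencing reads methylated cytosines as C and unmethylated cytosines as T, and the DMRs were called apart for cytosines in CG, in CHG and in CHH (H stands for any base but G). The series title links RBP45D to RNA-directed DNA methylation and to flowering time in heat, and the comparison asks where methylation differs in its mutant. With 1 mutant line, the mutation and other properties of that line cannot be told apart.

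Every level below is the authors' mean for a genotype, as a percentage of methylated cytosine, and differences are rbp-ko-1 minus Col-0, in percentage points. The deposited list holds no values per library and no coverage, so no level has an SD, the depth behind it is unknown, and whether a difference exceeds the spread between replicates could not be tested. The labels do not say if the 3 libraries were made from different plants. All members have a DMR by the way they were chosen, which is therefore no finding. Coordinates are those of the list, on TAIR10.

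CRK proteins carry a pair of cysteine-rich domains outside the cell and are known from responses to pathogens and to reactive oxygen. LECRK proteins carry a legume-lectin-like domain and include receptors that sense extracellular nucleotides. WAK proteins bind pectin in the cell wall and connect the wall to a kinase inside. RLP proteins have leucine-rich repeats but no kinase, and many signal with the co-receptor kinase SOBIR1. Many genes of these families lie in tandem arrays of related copies. In plants CG methylation is found in gene bodies and in transposons, while methylation outside CG is found mostly on transposons and repeats, and in CHH it is set anew after each DNA replication, in part guided by small RNAs.

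The rbp-ko-1 mutant had lower methylation at 43 of the 47 DMRs, and the 4 that were higher were all in CG. In CHH all 25 DMRs were lower (100%, exact 95% interval 86.3 to 100%), against 97.4% of all CHH DMRs in the list. In CG, 15 of 19 DMRs were lower (78.9%, 54.4 to 93.9%), against 74.7% of all CG DMRs. The 3 CHG DMRs were all lower, against 89.1% of all CHG DMRs. The intervals cover counting error only and treat each DMR as independent. The 25 CHH DMRs lie at 16 genes, some side by side, so the intervals may be too narrow. In CG and CHH the members' share was near that of the whole list.

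**Figure D1:**
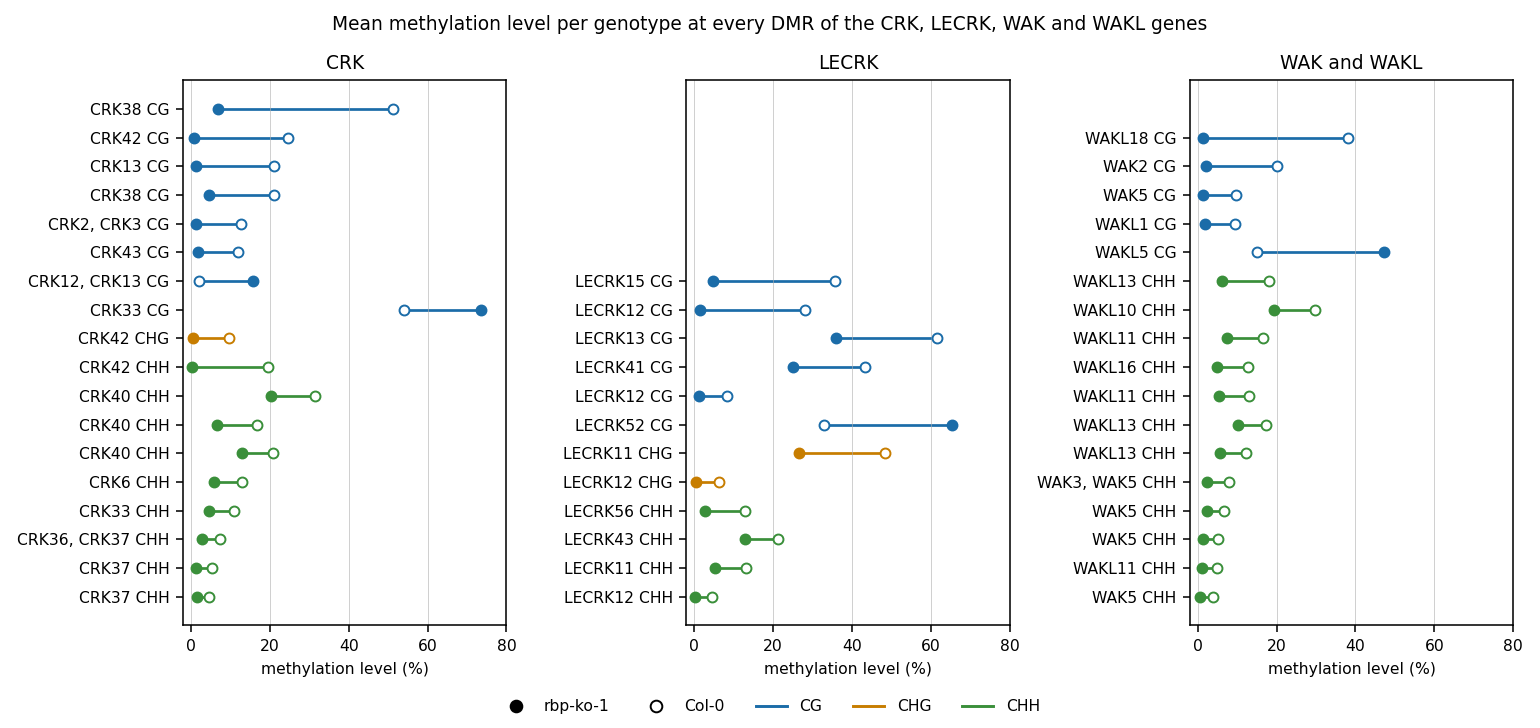
Mean methylation level in percent at each of the 47 DMRs, with rbp-ko-1 as filled and Col-0 as open points joined by a line coloured by context, in 1 panel per family, each row named by its gene. Filled points lie left of open points except at the CG DMRs of CRK12 and CRK13, CRK33, LECRK52 and WAKL5.

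Lower CHH DMRs of the members had median levels of 4.77% in rbp-ko-1 and 12.8% in Col-0, with a median difference of -7.10 points and a range from -19.3 to -3.08. Over all lower CHH DMRs of the list the medians were 3.14% in rbp-ko-1 and 8.99% in Col-0, with a median difference of -5.82 points. The share of the Col-0 level that was left in rbp-ko-1 had a median of 0.381 in the members and 0.354 in the whole list. Lower CG DMRs of the members had medians of 1.76% in rbp-ko-1 and 21.1% in Col-0, against 7.88% in rbp-ko-1 and 29.99% in Col-0 over all lower CG DMRs. Their median differences were alike in size, -18.2 points in the members and -18.3 in the list. The share left in rbp-ko-1 had a median of 0.135 in the members' lower CG DMRs and 0.300 in the whole list. The list also holds DMRs outside the nuclear chromosomes, and among its nuclear lower CG DMRs the median share was 0.280. In 12 of the 15 the rbp-ko-1 level was below 5%, against 942 of the 2174 lower CG DMRs in the list (43.3%), a limit that was chosen after the values were seen. These contrasts with the list were not tested.

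**Figure D2:**
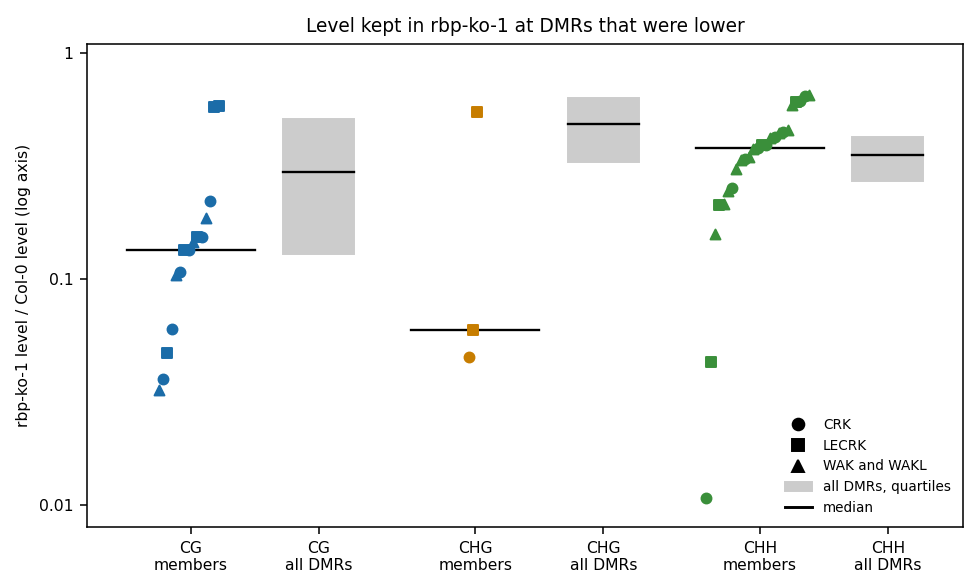
The rbp-ko-1 level divided by the Col-0 level, on a log axis, at the members' lower DMRs by context (points, shaped by family), beside the quartiles (grey boxes) and medians (lines) of all lower DMRs in the list. The CG points have a median of 0.135 against 0.300 for the list, the CHH points 0.381 against 0.354, and the lowest point is the CHH DMR of CRK42.

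CHH DMRs of the members lay mostly in promoters and CG DMRs mostly in exons, as in the whole list. Counting every annotated gene, 21 of the 25 CHH DMRs (84.0%) were in a promoter and 18 (72.0%) in nothing but promoters, where the whole list had 81.6% and 59.0%. Of the 19 CG DMRs, 15 (78.9%) were in an exon, against 74.05% in the list, and 4 in promoters only. In a promoter of some annotated gene lay 11 of them (57.9%), against 57.6% in the list. Within 3 Mb of a centromere lay 10 of the 25 CHH DMRs (40.0%), all of them CRK or LECRK regions on chromosomes 3 and 4, and none of the 12 WAK and WAKL regions. Among all lower nuclear CHH DMRs 57.8% lay there.

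A few long regions held much of the members' CHH DMR sequence. Among the members 5 of 25 CHH DMRs were at least 1000 bp long, against 9.48% in the whole list, and they held 11625 of 15772 bp (73.7%), against 41.9% for regions of that length over all CHH DMRs of the list. The region at CRK40 alone was 5601 bp, and without it, a choice made after seeing the data, the members' share was 59.2%. This contrast was not tested. The long regions lay at CRK40, LECRK56, WAKL16, LECRK11 and the pair WAK5 and WAK3.

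The largest differences at lower DMRs, in CG at CRK38 and in CHH at CRK42, were in the CRK family. At CRK42 (AT5G40380), methylation was low in all 3 contexts over the same stretch of promoter on chromosome 5. CHH methylation there was 0.211% in rbp-ko-1 and 19.5% in Col-0 over 61 cytosines (chr5:16149409-16149661). CHG methylation was 0.443% in rbp-ko-1 and 9.75% in Col-0 over 10 cytosines (chr5:16149492-16149666). CG methylation was 0.895% in rbp-ko-1 and 24.7% in Col-0 over 12 cytosines (chr5:16149493-16149668). The CHH difference of -19.3 points was the 19th in size among 5834 CHH DMRs, and only 3 of them kept a smaller share of the Col-0 level than its 0.0108. The same regions are also annotated to the promoter of AT5G40370, a gene of the glutaredoxin family.

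CRK40 (AT4G04570) had the longest region. It covered 5601 bp and 1622 cytosines upstream of the gene (chr4:2282606-2288206), and was 13th in length among all CHH DMRs. Its CHH level was 6.56% in rbp-ko-1 and 16.6% in Col-0. Closer to the gene followed a promoter DMR of 152 bp with 12.9% in rbp-ko-1 and 20.9% in Col-0. The last, over the promoter, 5′ UTR and exon (chr4:2288624-2288706), had 20.3% in rbp-ko-1 and 31.4% in Col-0. The shortest of the 3 thus had the highest levels in both genotypes and kept the most, 0.647 of the Col-0 level against 0.394 in the longest.

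CRK38 (AT4G04510), in the same array, had DMRs in exons and in CG only. The first (chr4:2243236-2243301, 12 cytosines) had 6.95% in rbp-ko-1 and 51.3% in Col-0, and its difference of -44.4 points was the largest of all members. The second (chr4:2244156-2244262) had 4.68% in rbp-ko-1 and 21.05% in Col-0. CRK37 (AT4G04500) had 3 CHH DMRs in its promoter, with rbp-ko-1 levels between 1.38% and 2.78% and Col-0 levels between 4.67% and 7.28%. The highest of them, 2.78% in rbp-ko-1 and 7.28% in Col-0, is shared with the promoter of CRK36 (AT4G04490), a kinase known to act in immunity and in abscisic acid responses.

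CRK13 (AT4G23210), whose overexpression is known to raise resistance to bacteria, carried DMRs of both directions. Its promoter (chr4:12152676-12152897, 20 cytosines) had 1.27% CG methylation in rbp-ko-1 and 21.1% in Col-0. Its exon (chr4:12149831-12149894), which is also the promoter of CRK12 (AT4G23200), had 15.8% in rbp-ko-1 and 2.05% in Col-0. That region has only 5 cytosines, the fewest among the members. CRK33 (AT4G11490) had both directions in its promoter only 59 bp apart. CG methylation was 73.6% in rbp-ko-1 and 53.9% in Col-0 (chr4:6977584-6977701), and CHH methylation was 4.63% in rbp-ko-1 and 10.9% in Col-0 (chr4:6977761-6977911). Both regions are also annotated to the promoter of LCR11, a gene for a small cysteine-rich peptide.

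The remaining CRK regions were lower. A CG DMR of 17 cytosines in the exon and 3′ UTR of CRK3 (AT1G70530) and the promoter of CRK2 (AT1G70520), a kinase known to control hydrogen peroxide production, had 1.37% in rbp-ko-1 and 12.8% in Col-0. CRK43 (AT4G28670) had 1.84% CG methylation in rbp-ko-1 and 11.9% in Col-0 over 33 exonic cytosines. The CDPK-related kinase CRK6 had 5.77% CHH methylation in rbp-ko-1 and 12.8% in Col-0 in its promoter.

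In the LECRK family, 8 of the 12 DMRs lay in 1 array on chromosome 3. LECRK12 (AT3G45390, LecRK-I.2) was lower in all 3 contexts at its 5′ end. The CHH DMR across its start (chr3:16649656-16649982, 103 cytosines) had 0.198% in rbp-ko-1 and 4.59% in Col-0. Inside it lay a CG DMR with 1.26% in rbp-ko-1 and 8.21% in Col-0 and a CHG DMR with 0.368% in rbp-ko-1 and 6.19% in Col-0. All 3 of these regions are also annotated to AT3G45400. A second exonic CG DMR (chr3:16648894-16648967) had 1.33% in rbp-ko-1 and 28.2% in Col-0. The rbp-ko-1 levels were thus at most 1.33% in every context. The share left of the Col-0 CHH level, 0.0432, ranked 69th lowest of 5834. From a low Col-0 level, the CHH difference was only -4.39 points and ranked 4161 in size.

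Its neighbour LECRK11 (AT3G45330, LecRK-I.1) had a promoter CHH DMR of 1507 bp with 5.16% in rbp-ko-1 and 13.1% in Col-0 (chr3:16636117-16637623). A CHG DMR of 6 cytosines within it had 26.7% in rbp-ko-1 and 48.3% in Col-0, so that here much of the CHG methylation was left. LECRK13 (AT3G45410, LecRK-I.3), a gene tied to salt and ethylene responses, had 35.9% exonic CG methylation in rbp-ko-1 and 61.5% in Col-0. LECRK15 (AT3G45430, LecRK-I.5) had 4.82% in rbp-ko-1 and 35.7% in Col-0 in a CG DMR annotated to its promoter, 5′ UTR, exon and intron (chr3:16662992-16663200).

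Elsewhere, LECRK56 (AT3G59730, LecRK-V.6) had the longest LECRK region, a CHH DMR of 1768 bp that ran through its introns and exons to the 3′ end (chr3:22063198-22064965). Its level was 2.76% in rbp-ko-1 and 13.0% in Col-0. LECRK43 (AT4G02410, LecRK-IV.3) had 12.9% promoter CHH methylation in rbp-ko-1 and 21.2% in Col-0, and LECRK41 (AT2G37710, LecRK-IV.1) had 24.96% exonic CG methylation in rbp-ko-1 and 43.2% in Col-0. Of the 8 LECRK members, only LECRK52 (AT1G70130, LecRK-V.2) had a higher DMR. Over 28 exonic CG cytosines (chr1:26410624-26411040) it had 65.4% in rbp-ko-1 and 32.8% in Col-0, a difference of 32.6 points.

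Among the wall-associated kinases, WAK5 (AT1G21230) had 5 DMRs, the most of any member. Its 4 CHH DMRs followed each other along the gene. From the first to the last along the chromosome the levels were 0.601%, 1.29%, 2.30% and 2.47% in rbp-ko-1, against 3.79%, 5.25%, 6.62% and 8.04% in Col-0. Both genotypes thus had higher levels at each step along the gene. The last, of 1067 bp (chr1:7431260-7432326), is also annotated as promoter of WAK3 (AT1G21240). A CG DMR in the WAK5 promoter had 1.42% in rbp-ko-1 and 9.70% in Col-0. WAK2 (AT1G21270), a pectin receptor needed for cell expansion, had 2.09% exonic CG methylation in rbp-ko-1 and 20.1% in Col-0 over 7 cytosines.

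The WAKL genes with several DMRs had them in promoters and in CHH only. WAKL13 (AT1G17910) had 3, of which the longest (chr1:6157486-6158050, 168 cytosines) had 6.04% in rbp-ko-1 and 18.0% in Col-0. This was the largest CHH difference of the family, -11.96 points, and the region is also annotated to the promoter of GER2. The others had 5.68% and 10.3% in rbp-ko-1, against 12.4% and 17.4% in Col-0. WAKL11 (AT1G19390) also had 3, with rbp-ko-1 levels between 1.03% and 7.38% and Col-0 levels between 4.79% and 16.6%. WAKL16 (AT3G25490) had 1 long promoter region of 1682 bp with 4.77% in rbp-ko-1 and 12.6% in Col-0. WAKL10 (AT1G79680), shared with the promoter of NUDT3, kept the most of its CHH methylation among the members, with 19.3% in rbp-ko-1 and 29.6% in Col-0 (share left 0.651).

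Single exonic CG regions marked the other WAKL genes. WAKL18 (AT4G31110) had 1.23% in rbp-ko-1 and 38.0% in Col-0 over 12 cytosines (chr4:15128458-15128533), the smallest share left in CG among the members (0.0323). WAKL1 (AT1G16120) had 1.76% in rbp-ko-1 and 9.41% in Col-0. WAKL5 (AT1G16160), in the same array, was higher, with 47.3% in rbp-ko-1 and 14.99% in Col-0 over 9 cytosines (chr1:5537916-5537983), and its difference of 32.3 points was close to that of LECRK52. So 25 of the 30 genes had lower DMRs only, WAKL5, LECRK52 and CRK12 had a higher DMR only, and CRK13 and CRK33 had both. In the whole list 89.8% of DMRs were lower, and the same tally by gene is not given for it.

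Different contexts met at 3 members. LECRK11, LECRK12 and CRK42 had 7 overlapping pairs of DMRs of different contexts, and the DMRs of each pair had the same direction. The contexts were measured in the same libraries, so this is no independent evidence of the direction. WAK5 and CRK33 also had DMRs in 2 contexts, but without overlap. Of all members 19 had a single DMR, and 7 had 3 or more. Among the members' DMRs, 13 are also annotated to a gene that is no member. The matching counts over the whole list, where 89.8% of DMRs were lower, are not given here. These counts therefore show nothing particular to the members.

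A count of family genes with and without a DMR was possible where a RefSeq gene table names the families. Genes that RefSeq puts in no family took the family of their name in the list, and such a gene has a DMR by that choice. CRK43, which has no CRK symbol in RefSeq, may be one, which would raise the CRK shares for any context and for CG. Of 43 CRK genes counted, 12 had a DMR in gene or promoter (27.9%, exact 95% interval 15.3 to 43.7%). Of 45 LECRK genes 11 had one (24.4%, 12.9 to 39.5%), against 22.0% of all 27444 nuclear protein-coding genes. For CG the counts were 8 CRK genes (18.6%) and 7 LECRK genes (15.6%), against 11.8% of all genes. In CHH they were 6 CRK genes (13.95%) and 5 LECRK genes (11.1%), against 12.5% of all genes, and in CHG 1 CRK gene (2.33%) and 2 LECRK genes (4.44%), against 1.35%. The interval of each family includes the share of all genes, for DMRs of any context and for each context. A DMR annotated to 2 genes counts for both, as at CRK2 and CRK3. Genes were thus not independent, and the intervals may be too narrow. Of the counted genes, 4 are not among the 30 because the list names them otherwise. RKF2 (AT1G19090), which RefSeq also calls CRK1, had 6 CHH DMRs spread over its promoter and gene, with rbp-ko-1 levels between 6.68% and 11.4% and Col-0 levels between 14.7% and 23.3%. LECRKS6 had 10.6% CG methylation in rbp-ko-1 and 20.7% in Col-0, and LECRKS7 had 0.126% CHH methylation in rbp-ko-1 and 3.89% in Col-0. LecRK-II.2 (AT5G59270) is listed without a name, and its levels and direction are not given here. RefSeq names too few WAKL genes for such a count.

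**Figure D3:**
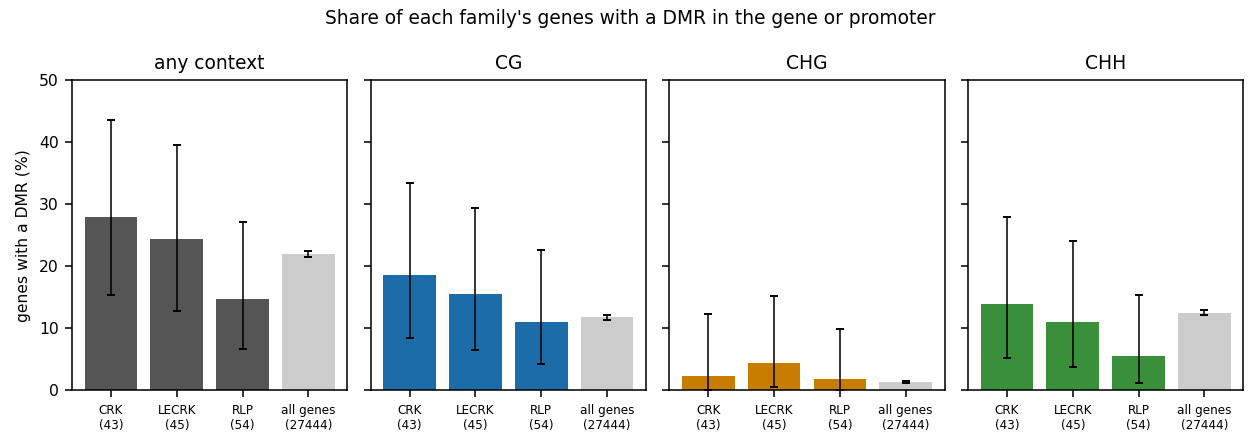
Percent of the genes of the CRK, LECRK and RLP families, and of all nuclear protein-coding genes (grey), that carried a DMR in gene or promoter, in any context and by context, with exact 95% intervals for counting error and the number of genes in brackets. The CRK and LECRK intervals reach across the bar of all genes in every panel.

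Single tandem arrays held between 0 and 8 DMRs. An array was counted where at least 3 genes of a family lay within 50 kb of the next. This gave 14 arrays with 17 of the 30 members and 29 of the 47 DMRs. The 14 include arrays of RLP genes, which can hold no member. The share of all family genes that lie in arrays is not given, so these counts do not show that the members gather there. The largest array, of 20 genes from CRK5 to CRK24 on chromosome 4, had DMRs at only CRK12 and CRK13, with 1 lower and 1 higher. The 5 genes from CRK36 to CRK40 had 8 DMRs at 4 genes, all lower, and CRK39 had none. The LECRK array on chromosome 3 had 8 DMRs at 4 of 6 genes, all lower, and the WAK array had 6 at 3 of 5 genes, all lower. Over the whole list 89.8% of DMRs were lower (97.4% in CHH), and 22.0% of all protein-coding genes had a DMR. With so few DMRs per array, these counts do not set an array apart from the list, and no difference was tested. WAK1, the founding member of the family, and WAK4 had none. In the array from WAKL7 to WAKL5 only 2 of 7 genes had a DMR, 1 lower and 1 higher, and the array around CRK33 had DMRs at that gene alone of 5. LECRK56 was the only gene with a DMR among 4 on chromosome 3. Both LECRK arrays on chromosome 5 had none, and this includes DORN1 (LecRK-I.9), the receptor of extracellular ATP. A gene with no entry in the list is not shown to have equal methylation. Related copies in an array may share reads, which would make levels there uncertain. Sequence identity between the copies was not measured, and the labels do not say how such reads were handled.

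**Figure D4:**
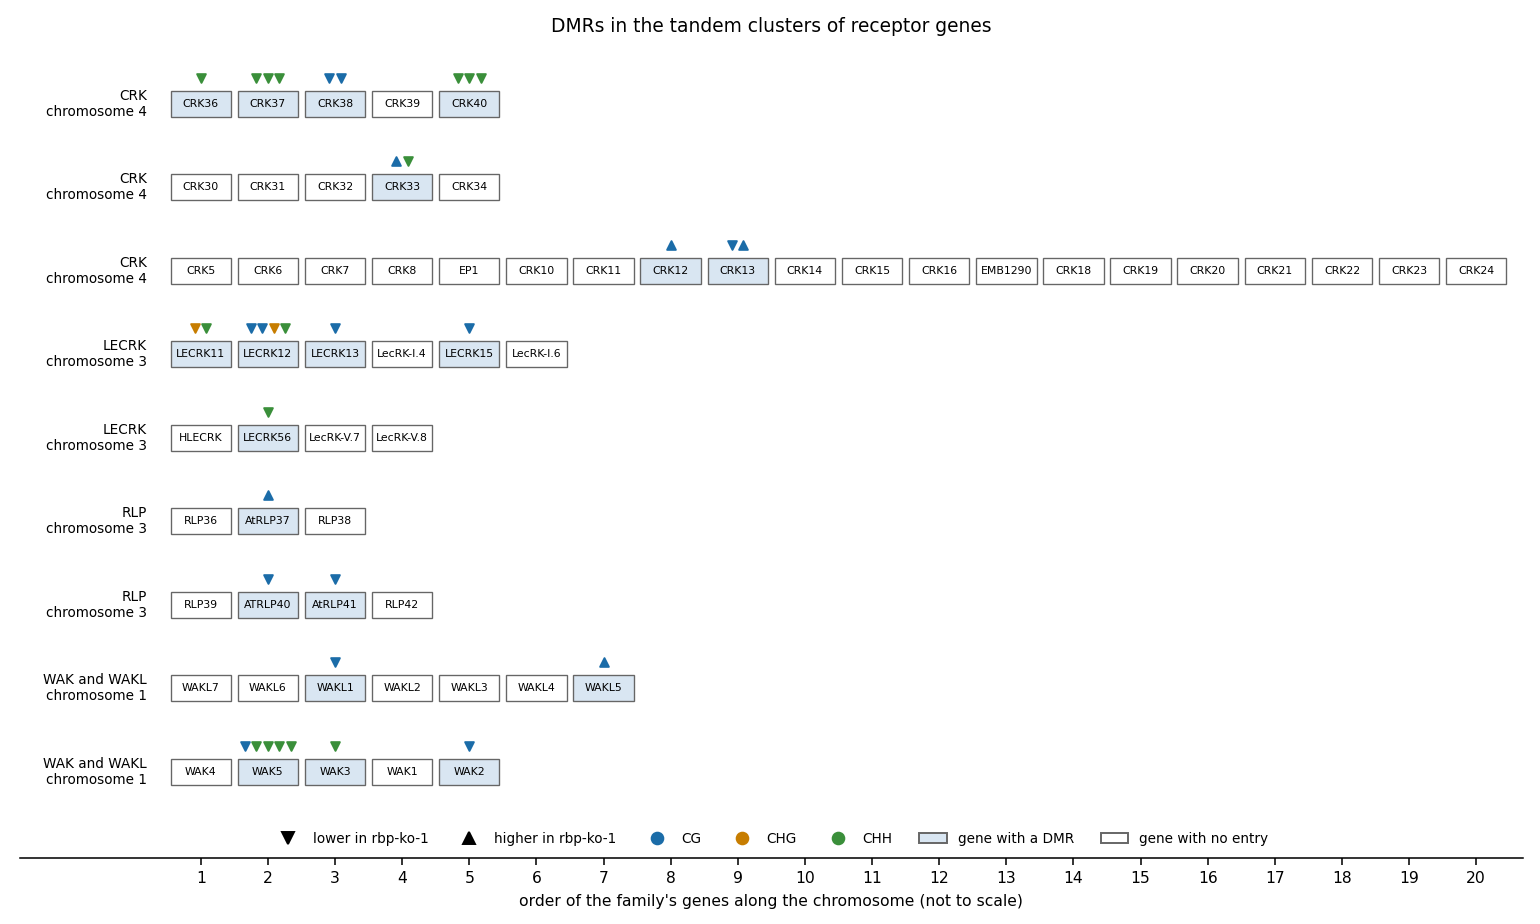
Genes of 9 tandem arrays with at least 1 DMR, in their order along the chromosome and not to scale, shaded where the gene has a DMR, with a triangle above for each DMR (down for lower and up for higher in rbp-ko-1, coloured by context). A DMR annotated to 2 genes is drawn at both. The arrays of CRK36 to CRK40, of LECRK11 and of WAK5 carry only lower DMRs, and 18 of the 20 genes from CRK5 to CRK24 carry none. Over the whole list 89.8% of DMRs were lower, and 22.0% of all protein-coding genes carried a DMR.

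The 8 RLP genes in the list had 10 DMRs, 7 lower and 3 higher, and they are 8 of 54 RLP genes (14.8%, exact 95% interval 6.62 to 27.1%), against 22.0% of all genes. The 4 CHH DMRs and the CHG DMR were lower, where the whole list had 97.4% lower in CHH and 89.1% in CHG. In CG 2 of 5 were lower (40%, exact 95% interval 5.27 to 85.3%), an interval that includes the 74.7% of the list. RLP3 (AT1G17250), a gene of resistance to Fusarium wilt, had 42.9% CG methylation in rbp-ko-1 and 9.55% in Col-0 in an exon (chr1:5901550-5901635). RLP37 (AT3G23110) had 33.9% in rbp-ko-1 and 1.77% in Col-0 at its 3′ end, in a region also annotated to an intron of XRCC4. RLP6 (AT1G45616) had 14.6% in rbp-ko-1 and 3.04% in Col-0 in an exonic CG DMR also annotated to AT1G45545. Its promoter had a lower CHH DMR, with 1.01% in rbp-ko-1 and 4.31% in Col-0. The lower CG regions were at the promoter of RLP43 (AT3G28890), with 3.45% in rbp-ko-1 and 44.1% in Col-0, and at an exon of RLP41 (AT3G25010) that is also the promoter of RLP40, with 1.90% in rbp-ko-1 and 27.4% in Col-0. RLP19 (AT2G15080) had a CHH region of 4785 bp upstream (chr2:6528350-6533134), with 4.11% in rbp-ko-1 and 11.5% in Col-0. RLP5 (AT1G34290) had 1.68% CHH methylation in rbp-ko-1 and 6.82% in Col-0 across its start, and a CHG DMR inside that with 12.05% in rbp-ko-1 and 25.7% in Col-0. CLV2 and TMM, RLP genes of meristem and stomatal development, had no entry, nor had RLP23, RLP30 and RLP42, which are known to sense microbial proteins.

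Other genes of cell-surface immunity were compared as a list of 25 receptors, co-receptors and signalling genes. Of these, 7 had a DMR (28.0%, against 22.0% of all genes), with 7 DMRs lower and 1 higher, where 89.8% of all DMRs in the list were lower. Among receptors, FLS2, which binds bacterial flagellin, had 2.15% exonic CG methylation in rbp-ko-1 and 5.83% in Col-0. PEPR2, which binds plant Pep peptides, had 60.9% in rbp-ko-1 and 79.5% in Col-0, and LYK5, a chitin receptor, had 1.57% in rbp-ko-1 and 3.34% in Col-0, both in exonic CG. The differences at FLS2 and LYK5 were among the smallest in CG, ranking 2841 and 2907 in size of 2909 DMRs. Of the co-receptors only BKK1 (listed as SERK4) had DMRs, a pair of promoter CHH regions with 7.89% and 9.27% in rbp-ko-1, against 15.2% and 18.8% in Col-0. Downstream, the promoter of PAD4, a regulator of salicylic acid defence, had 14.6% CHH methylation in rbp-ko-1 and 23.5% in Col-0, and an exon of its partner EDS1 had 1.70% CG methylation in rbp-ko-1 and 9.96% in Col-0. The only higher region was in CG at the promoter of the kinase gene MPK3, with 71.8% in rbp-ko-1 and 48.1% in Col-0. BAK1, SOBIR1, CERK1, EFR, BIK1 and RBOHD had no entry.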

How the data were processed

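Reads were handled with MethylDackel, Bismark, FastQC and Trimmomatic on TAIR10, per the submitters' processing notes. Not given in the sources used here were the DMR caller, its thresholds, all versions, the annotation, promoter length, coverage and bisulfite conversion. The authors deposited methylation levels as a fraction, 1 mean per genotype, with a signed difference and an area statistic, a score per DMR that was used only as an alternative filter. Fractions were multiplied to percent. Entries were reduced to 1 per position and context, so a DMR of several genes counts once. Shares have exact Clopper-Pearson intervals at 95%, for counting error only, as if DMRs or genes were independent. No test was run, because the planned model over libraries needs counts per library and a list chosen by name gets no test against other genes. The members, lists and rules were chosen with earlier results of these data known. The rule for named genes took, by family and context, the 3 lower and the 2 higher DMRs of largest difference, every member with several contexts, both directions or at least 3 DMRs, and listed immune genes with a DMR; the remaining members are named so that all are accounted for. Gene families and neighbours came from a RefSeq gene table (TAIR10.1), which matched all 30 genes. Genes it puts in no family took the family of their name in the list. A CRK name there that belongs to a CDPK-related kinase was left out. Centromeres were taken at 15, 3.6, 14, 4.0 and 12 Mb on chromosomes 1 to 5. Counting was checked on simulated data. Python 3.11.15, pandas 2.3.3 and SciPy 1.17.1 were used.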

Additional observations from a re-analysis of the deposited data

How the results depend on the processing

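The shares of lower DMRs stayed within their intervals under every alternative that gave a value, between 70.8% and 85.7% in CG and at 100% in CHG and CHH. No CHH DMR was left at a difference of at least 20 points. Counts of DMRs, 47 as reported, came to 23 at 10 points, 9 at 20 points, 25 above the median of the area statistic, 23 in gene bodies and 30 in promoters. Counts of genes, 30 as reported, came to 9 at 20 points, 19 above that median, 16 in gene bodies and 19 in promoters. The median CHH difference of -7.10 points came to -10.7 at 10 points and -4.39 in gene bodies, and the median CG difference of -18.2 points to -28.8 at 20 points. These follow from fewer, larger or other regions being kept. Filters on cytosines, length, shared annotation and neighbouring regions, and leaving out CRK6 or the array from CRK36 to CRK40, moved no count by over 1.5 times. Adding the RLP genes and RKF2 gave 39 genes and 63 DMRs, with 70.8% of CG DMRs lower. No paired analysis was possible because the list holds 1 mean per genotype, and leaving out libraries was not run for the same reason. Depth limits every level to an unknown degree, since the list gives no coverage.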
